A study of Homo sapiens with 2 samples.

Results

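The genes described here encode the collagens, the laminins, fibronectin (FN1), SPARC and tenascin C (TNC). They were chosen by name, as every gene whose symbol has the form COL, number, A, number or LAM, a letter from A to C, number, plus FN1, SPARC and TNC. This gave 59 genes of 57110 gene entries, with 44 collagens, 12 laminin chains and 3 others, and 159 listed transcripts. None shared an entry with another gene. They were measured in a single PromethION long-read library, made from a pool of the established ovarian cancer lines IGROV1, SK-OV-3 and COV504 in equal parts after trypsin treatment, with an LSK-110 nanopore kit on 10x cDNA. A second library of the same pool was read on an Illumina instrument, and only its barcode list was used, which held all 2462 barcodes of the long-read library. The study mixed the lines to test the quantification of transcripts in single cells.

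Collagens are trimers of alpha chains that form fibrils, sheets or filaments outside the cell, and one collagen type is often built from chains of several genes. Laminins are trimers of 1 alpha, 1 beta and 1 gamma chain, and with type IV collagen they make up the sheet-like basement membrane on which epithelial cells rest. Fibronectin is a dimer that links cells to fibrils, while SPARC and tenascin C modulate how cells attach. Carcinoma cells of the ovary can make basement membrane chains as epithelial cells do, and fibrillar collagens as mesenchymal cells do.

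Barcodes were placed in a line by marker counts. A barcode with at least 1000 counts was placed where 75% or more of its counts of 10 marker genes fell on ERBB2, NNMT, TSPAN1 and DHRS2, on RARRES2 and TMEM100, or on FOLR1, CLDN3, DEFB1 and CXCL14. This gave 648 ERBB2-high barcodes with 3442383 counts, 473 RARRES2-high barcodes with 3377992 and 765 FOLR1-high barcodes with 4514999, with median depths of 4953, 6262 and 5289 counts. The other 576 barcodes were not placed, 333 of them for depth. GRB7, MIEN1, STARD3 and PGAP3, neighbours of ERBB2 in the segment amplified in SK-OV-3, had more CPM in ERBB2-high barcodes than in the other lines, with GRB7 at 56.4, 2.66 and 28.8 CPM in ERBB2-high, RARRES2-high and FOLR1-high barcodes. No label ties the RARRES2-high and FOLR1-high barcodes to IGROV1 or COV504, so these names of marker genes are kept. Each line is 1 set of cells from 1 library, so differences between lines carry no test, and intervals (95%, in brackets) cover counting error only. Of 10 markers of fibroblasts, endothelial cells and leukocytes, DCN and CD3E had 0 counts in every line, PDGFRB, PTPRC and VWF had 4, 2 and 5 in the library, LUM had 8 in ERBB2-high and PECAM1 4 in ERBB2-high and 8 in FOLR1-high barcodes, CDH5 had 103 in RARRES2-high barcodes, and PDGFRA and CD68 could not be read because their entries join them to abundant neighbours. Signal between lines was read from genes not used to place barcodes: RGCC had 237 counts in RARRES2-high and 0 in both others, KRT24 had 408 in FOLR1-high, 1 in ERBB2-high and 0 in RARRES2-high barcodes, and MOXD1 had 280, 30 and 0. For folds, a count of 0 was set to 3 counts, which is 0.872, 0.888 and 0.664 CPM in ERBB2-high, RARRES2-high and FOLR1-high barcodes. The upper 95% limits of a count of 0 were 1.072, 1.092 and 0.817 CPM in the same order.

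The 59 genes held 20281 counts, 0.155% of the library. A total of 9 genes had none, 15 had 1 to 9, 14 had 10 to 99, and 21 had at least 100. LAMC1, COL4A2, COL18A1 and FN1 together held 41.0% of these counts. Whether a count is 1 read or 1 molecule is not given by the sources used here. Counts were not divided by transcript length, so levels are compared between lines for one gene and not between genes. CPM are the counts of a gene per 1000000 counts of the line. A gene was compared where it had at least 50 counts in a line, and it was called highest or lowest in a line where its CPM was at least 4-fold above or below both other lines.

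Of the 25 matrix genes compared, 10 were called highest in 1 line, against 7.52% of all 8536 entries compared. Of these, 6 were highest in RARRES2-high barcodes (all entries 3.26%), 2 in ERBB2-high (2.32%) and 2 in FOLR1-high (1.94%). The FOLR1-high line was called lowest for 8 genes (all entries 4.67%), and neither other line for any (all entries 1.39% for ERBB2-high and 2.41% for RARRES2-high). Over the 3 lines, 8.48% of all entries were called lowest in 1. The call of a lowest line was added after the values were seen. The CPM of the 25 genes differed between the highest and the lowest line by a median of 3.83 on the log2 scale, against 1.17 over all entries compared. Mitochondrial and ribosomal protein genes took 15.9, 19.4 and 35.9% of the counts of ERBB2-high, RARRES2-high and FOLR1-high barcodes. Scaling without them raised FOLR1-high values by 0.39 on the log2 scale against ERBB2-high and by 0.33 against RARRES2-high.

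**Figure D1:**
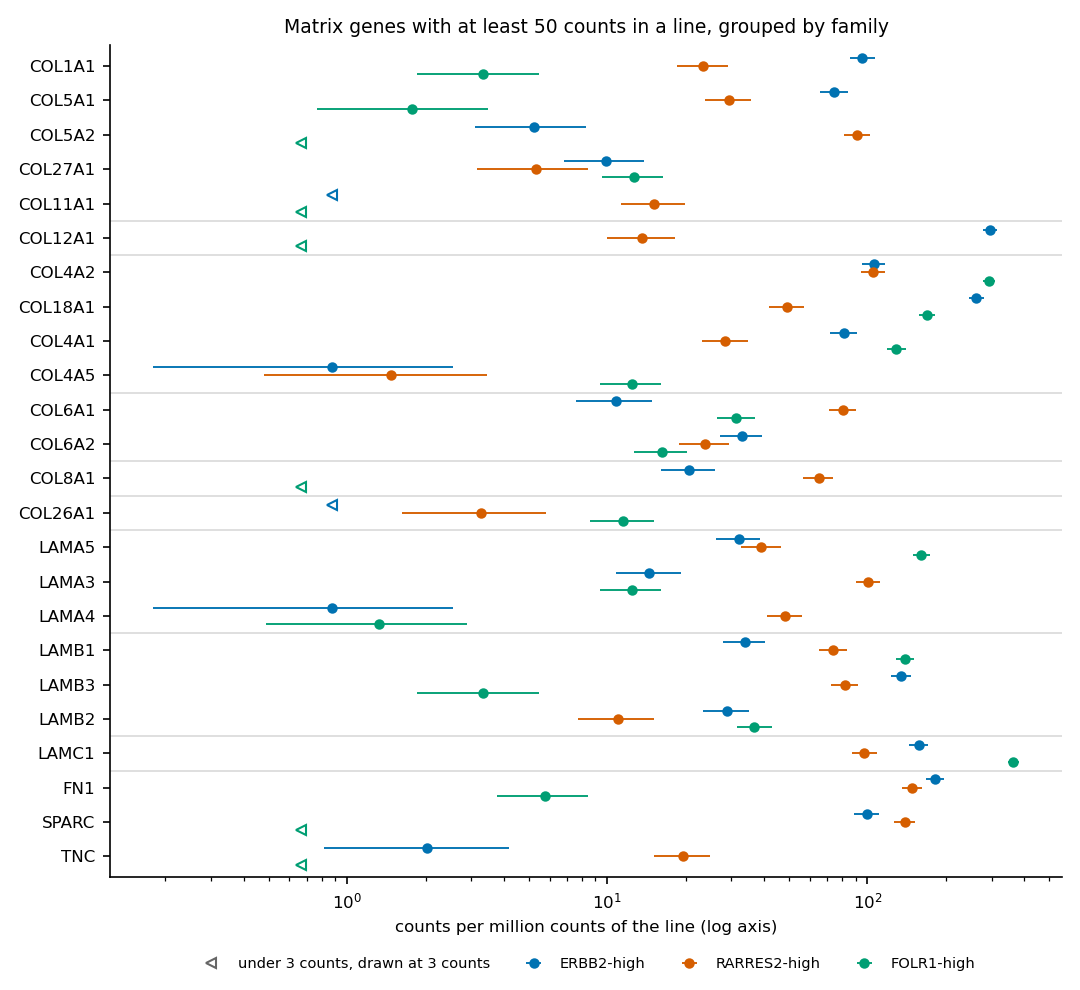
CPM (log axis) of 24 matrix genes with at least 50 counts in a line, grouped by family, one point per line with its 95% counting interval; open triangles mark genes under 3 counts, drawn at the level of 3 counts. FOLR1-high points lie to the left for COL1A1 (3.32 CPM), FN1 (5.76 CPM) and LAMB3 (3.32 CPM), and to the right for LAMC1 (363.5 CPM), LAMA5 (161 CPM) and COL4A2 (293 CPM).

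Of the fibrillar collagens, which make the cables of connective tissue, the type I, V and XI chains were scarce in FOLR1-high barcodes, while COL27A1 was not. COL1A1 (ENSG00000108821, chr17:50183289-50201632), the main chain of type I collagen, had 329 counts in ERBB2-high, 79 in RARRES2-high and 15 in FOLR1-high barcodes, or 95.6 CPM (85.5 to 106.5), 23.4 CPM (18.5 to 29.15) and 3.32 CPM (1.86 to 5.48). It was 4.09-fold (3.19 to 5.29) higher in ERBB2-high than in RARRES2-high barcodes, a value that came from few barcodes, as described further on. COL1A2, its partner chain, had 45 counts in ERBB2-high, 14 in RARRES2-high and 0 in FOLR1-high barcodes, and was at least 19.7-fold higher in ERBB2-high than in FOLR1-high barcodes. COL3A1, a further fibrillar chain, had 1 count in the library.

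Type V collagen, which starts fibrils and sets their width, differed between lines by chain. COL5A1 (ENSG00000130635, chr9:134641774-134844843) had 257 counts in ERBB2-high, 99 in RARRES2-high and 8 in FOLR1-high barcodes, or 74.7 CPM (65.8 to 84.4), 29.3 CPM (23.8 to 35.7) and 1.77 CPM (0.765 to 3.49). COL5A2 (ENSG00000204262, chr2:189031896-189225312) had 18 counts in ERBB2-high, 308 in RARRES2-high and 2 in FOLR1-high barcodes, or 5.23 CPM (3.099 to 8.26), 91.2 CPM (81.3 to 102) and 0.443 CPM (0.05365 to 1.6). COL5A1 was thus highest in ERBB2-high and COL5A2 in RARRES2-high barcodes, and both were near the limit of counting in FOLR1-high ones. COL5A1 was 2.55-fold (2.01 to 3.25) higher in ERBB2-high than in RARRES2-high barcodes, and COL5A2 was 17.4-fold (10.85 to 29.8) higher in RARRES2-high than in ERBB2-high ones. COL5A1 took 93.45% (89.85 to 96.1%) of the counts of the pair in ERBB2-high and 24.3% (20.2 to 28.8%) in RARRES2-high barcodes. COL5A3, the third chain, had 0 counts in ERBB2-high, 16 in RARRES2-high and 1 in FOLR1-high barcodes.

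COL11A1, a chain that copolymerises with type II and type V collagen, had 2 counts in ERBB2-high, 51 in RARRES2-high and 0 in FOLR1-high barcodes. It was called highest in RARRES2-high barcodes. Its ratio to ERBB2-high barcodes, taken on the 2 counts observed there, was 25.99 (6.83 to 220.4), and it was at least 22.7-fold above FOLR1-high ones with their 0 counts set to 3. The call ended at a minimum of 100 counts, and when 90% of the marker counts were asked for: 35 counts were then left in RARRES2-high barcodes, under the 50 needed, and the level was 19.4 CPM. COL27A1, a fibrillar collagen of cartilage, was spread over the lines, with 34 counts in ERBB2-high, 18 in RARRES2-high and 57 in FOLR1-high barcodes. COL12A1 (ENSG00000111799, chr6:75084326-75206051), which attaches to the surface of fibrils, had 1015 counts in ERBB2-high, 46 in RARRES2-high and 2 in FOLR1-high barcodes, or 295 CPM (277 to 314), 13.6 CPM (9.97 to 18.2) and 0.443 CPM (0.05365 to 1.6). It was 21.65-fold (16.1 to 29.8) higher in ERBB2-high than in RARRES2-high barcodes. A count of COL12A1 was found in 62.65% of ERBB2-high barcodes (58.8 to 66.4%), in 8.46% of RARRES2-high and in 0.261% of FOLR1-high ones. After every barcode was thinned to 2000 counts, which left out 42, 30 and 32 shallower barcodes of the ERBB2-high, RARRES2-high and FOLR1-high lines, these shares were 37.3%, 3.16% and 0%.

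COL1A1 was unevenly spread within the ERBB2-high line. A count was found in 10.03% of ERBB2-high barcodes (7.83 to 12.6%), and 39 of the 648 barcodes had 2 or more, which together held 92.1% of the line's COL1A1 counts. The most in 1 barcode was 28. In the thinned barcodes, the Fano factor (variance over mean) of COL1A1 was 3.804, where genes of like mean had a median of 1.02. FN1 and SPARC were uneven in the same line, with Fano factors of 6.095 and 2.33 where genes of like mean had medians of 1.05 and 1.02. COL18A1, by contrast, had a Fano factor of 1.03 where genes of like mean had a median of 1.055. COL1A1 was uneven in the RARRES2-high line as well, where its 79 counts lay in 43 barcodes (9.09%), with 20 in 1 barcode.

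The 39 barcodes with 2 or more COL1A1 counts, a split chosen after the values were seen, were compared with the other 609 of the ERBB2-high line. Their median depth was 5276 counts against 4929, and 3 of the 39 and 7 of the 609 were called doublets. SPARC had 516 CPM (429 to 615.5) against 68.1 (59.3 to 77.7), a difference of 7.58-fold (6.03 to 9.496). COL5A1 had 312 CPM (246 to 391) against 56.8 (48.9 to 65.7), and COL1A2 had 74.9 CPM (44.4 to 118) against 8.43 (5.56 to 12.3). Of the 7177 other entries with at least 50 counts in the line, 0.376% were at least 4-fold higher in the 39 barcodes and 1.14% at least 4-fold lower. SPARC, which binds collagen, and COL5A1 were among the 27 entries that were higher, while COL1A2 had too few counts to enter that number. Counts of LUM, PECAM1 and CDH5, markers of fibroblasts and endothelial cells, were 0 in the 39 barcodes and 8, 4 and 1 in the others, and DCN and PDGFRB had 0 in both. The upper limit of a count of 0 in the 39 barcodes was 15.36 CPM. LUM, PECAM1 and CDH5 had 2.498, 1.249 and 0.3123 CPM in the others, all under that limit. The counts of 0 could therefore not show whether these markers differed between the groups.

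Other members were lower, higher or little different in the 39 barcodes. COL12A1 had 121 CPM (80.85 to 173) against 308 (289 to 328), and LAMB3 had 49.95 CPM (25.8 to 87.3) against 141 (128 to 155). COL6A2 had 0 counts in the 39 barcodes, with an upper limit of 15.4 CPM, and 113 in the others, or 35.3 CPM (29.1 to 42.4). FN1 had 283 CPM (219.8 to 359) against 175 (161 to 190), while COL18A1 had 299.7 CPM (234.5 to 377.5) against 259 (242 to 277), intervals that overlap for COL18A1 and not for FN1. COL4A1 had 124.9 CPM (84.3 to 178) against 77.8 (68.4 to 88.0), a ratio of 1.61 (1.06 to 2.35). Of the 4 genes that placed these barcodes, ERBB2 was lower, with 117 CPM (77.45 to 168.5) against 451 (428 to 475), and so was TSPAN1, with 37.5 CPM (17.1 to 71.1) against 432.5 (410 to 456). NNMT was higher, with 1290 CPM (1151 to 1442) against 804.5 (774 to 836), and DHRS2 as well, with 504 CPM (418 to 602) against 319.5 (300.2 to 339.7). Among neighbours of ERBB2, STARD3 had 62.4 CPM (34.95 to 103) against 226 (209.6 to 243) and MIEN1 387 CPM (312.5 to 474) against 539 (514 to 565). GRB7 had 8.33 CPM (1.01 to 30.1) against 59.96 (51.8 to 69.1), on 2 and 192 counts. Whether the 39 barcodes belong to the same cell line as the others was not settled. RARRES2 and FOLR1 had 54.1 and 20.8 CPM in them, against 42.8 and 29.98 in the rest of the line. Outside the matrix genes, the 5 single-gene entries with the largest ratio after 10 CPM were added to both sides were KRT81, IGFBP5, TENM2, PRSS23 and CCDC80, with KRT81, a hair keratin, at 720.2 against 20.3 CPM. The 5 with the smallest were PPP1R1B, SLPI, GCHFR, SPP1 and IDO1, with SLPI, a secreted protease inhibitor of epithelia, at 125 against 1962 CPM. The call of COL1A1 as highest in ERBB2-high barcodes rests on the 39 barcodes, which were chosen on COL1A1 itself. Leaving out the ERBB2-high barcodes with neither an ERBB2 nor a TSPAN1 count, a choice that does not use COL1A1, lowered its log2 ratio to the RARRES2-high line from 2.03 to 1.11 and ended the call, as did scaling without mitochondrial and ribosomal protein genes (1.97).

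**Figure D2:**
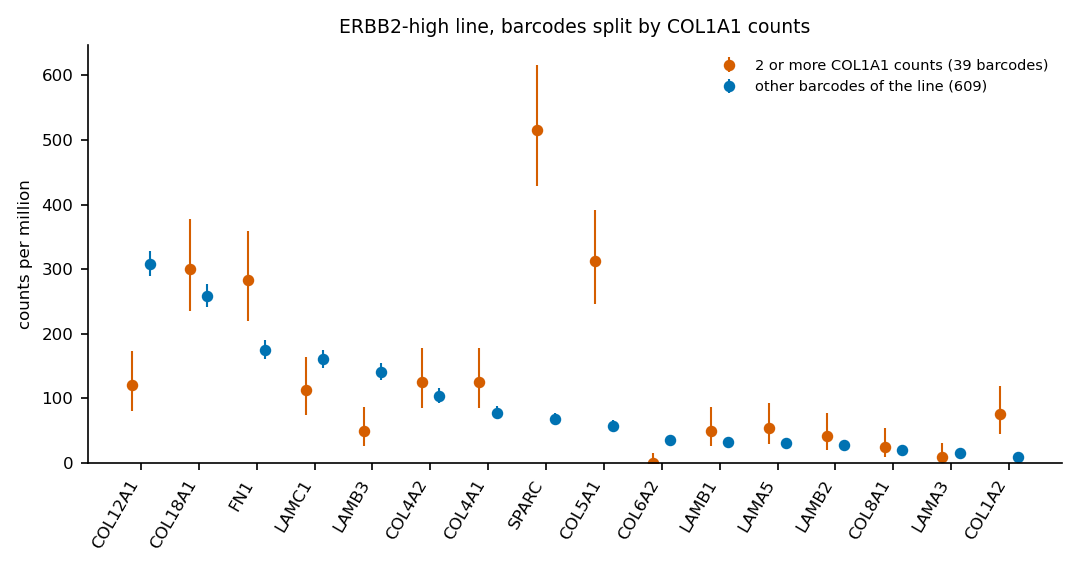
CPM of matrix genes with at least 40 counts in the ERBB2-high line, other than COL1A1, in the 39 barcodes with 2 or more COL1A1 counts and the 609 others; points carry 95% counting intervals. SPARC, COL5A1 and COL1A2 stand higher in the 39 barcodes (516 against 68.1 CPM for SPARC), COL12A1 and LAMB3 lower.

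Of the basement membrane collagens, the 2 chains of the common type IV network, COL4A1 and COL4A2, were highest in FOLR1-high barcodes. COL4A2 (ENSG00000134871, chr13:110305812-110513209) had 363 counts in ERBB2-high, 355 in RARRES2-high and 1321 in FOLR1-high barcodes, or 105.5 CPM (94.9 to 117), 105 CPM (94.4 to 117) and 293 CPM (277 to 309). COL4A1 (ENSG00000187498, chr13:110148963-110307233) had 279 counts in ERBB2-high, 96 in RARRES2-high and 584 in FOLR1-high barcodes, or 81.05 CPM (71.8 to 91.1), 28.4 CPM (23.02 to 34.7) and 129 CPM (119 to 140.3). COL4A2 was 2.775-fold (2.47 to 3.125) higher in FOLR1-high than in ERBB2-high barcodes, and COL4A1 1.596-fold (1.38 to 1.85), both under the 4-fold of a call. The ERBB2-high and RARRES2-high lines had nearly equal COL4A2, while their COL4A1 differed 2.85-fold (2.25 to 3.635). COL4A1 thus took 43.5% (39.6 to 47.4%) of the counts of the pair in ERBB2-high, 21.3% (17.6 to 25.4%) in RARRES2-high and 30.7% (28.6 to 32.8%) in FOLR1-high barcodes, 3 intervals that do not overlap. The genes lie head to head on chromosome 13, and their leading transcripts, ENST00000375820 on the minus strand and ENST00000360467 on the plus strand, start at chr13:110307233 and chr13:110307236 in GENCODE 29 (GRCh38), and at chr13:110307149 and chr13:110307267 in the deposited table. The annotated spans of these genes overlap on opposite strands, and no source used here gives the strand handling, so reads near the starts could be assigned to either.

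COL4A3, COL4A4, COL4A5 and COL4A6 encode the minor type IV chains of kidney and other specialised basement membranes. COL4A4 had 18 counts in ERBB2-high, 36 in RARRES2-high and 0 in FOLR1-high barcodes, and its head-to-head neighbour COL4A3 had 48 counts in ERBB2-high, 13 in RARRES2-high and 1 in FOLR1-high barcodes. COL4A3 was thus higher in ERBB2-high and COL4A4 in RARRES2-high barcodes, 3.62-fold (1.93 to 7.29) and 2.04-fold (1.13 to 3.81). COL4A5 (ENSG00000188153, chrX:108439844-108697545) had 3 counts in ERBB2-high, 5 in RARRES2-high and 56 in FOLR1-high barcodes, or 0.8715 CPM (0.18 to 2.55), 1.48 CPM (0.481 to 3.45) and 12.4 CPM (9.37 to 16.1), and was called highest in FOLR1-high barcodes, 8.38-fold (3.385 to 26.8) above RARRES2-high ones. This log2 ratio of 3.07 was 2.13 when 90% of the marker counts were asked for and 2.42 with the FOLR1-high line as its DEFB1 state alone, the barcodes with mostly DEFB1 rather than CXCL14 counts. The call ended in either state alone, where under 50 counts were left (17 in the CXCL14 and 5 in the DEFB1 state), at a minimum of 100 counts and at 10-fold. Its head-to-head neighbour COL4A6 had 0 counts in ERBB2-high, 3 in RARRES2-high and 0 in FOLR1-high barcodes. Part of the sequence between each pair of starts, 76 of 135 bases for the first pair and 250 of 379 for the second by RefSeq, is shown because COL4A3 and COL4A4 were highest in different lines, and COL4A5 was called where COL4A6 had too few counts to order the lines; it lies outside the exons of both genes and is from the RefSeq promoter table, on the plus strand of GRCh38.p14, at chr2:227164489-227164564 for the first pair and chrX:108439588-108439837 for the second, and capitals mark CCAAT or GGGCGG on either strand:
COL4A4 and COL4A3: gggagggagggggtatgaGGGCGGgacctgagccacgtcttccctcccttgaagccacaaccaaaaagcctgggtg
COL4A6 and COL4A5: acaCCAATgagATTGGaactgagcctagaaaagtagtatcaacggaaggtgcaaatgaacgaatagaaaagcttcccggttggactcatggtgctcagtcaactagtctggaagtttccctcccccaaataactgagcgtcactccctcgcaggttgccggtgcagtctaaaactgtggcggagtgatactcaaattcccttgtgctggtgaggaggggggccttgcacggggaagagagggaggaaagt

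The stretch shown between COL4A4 and COL4A3 held 1 GGGCGG, a sequence found on either strand in 21.9% of 34943 RefSeq promoter windows of the same length and place, and no CCAAT, found in 14.85%. The stretch shown beside COL4A5 held 2 CCAAT, on opposite strands, where 32.0% of windows held at least 1, and no GGGCGG, where 42.55% did. TATAAA was in neither stretch, and the bases not shown were not searched. These matches are descriptions of the letters and not of bound sites.

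COL18A1 (ENSG00000182871, chr21:45405137-45513720), the basement membrane collagen whose end fragment is endostatin, had 901 counts in ERBB2-high, 166 in RARRES2-high and 763 in FOLR1-high barcodes, or 262 CPM (245 to 279), 49.1 CPM (41.95 to 57.2) and 169 CPM (157 to 181). It was highest in ERBB2-high barcodes by 1.55-fold (1.405 to 1.71) over FOLR1-high ones, and lowest in RARRES2-high barcodes by 3.44-fold (2.904 to 4.09). A count was found in 68.8% of ERBB2-high barcodes (65.1 to 72.4%), 23.04% of RARRES2-high barcodes (19.3 to 27.1%) and 55.95% of FOLR1-high barcodes (52.35 to 59.5%), or 39.3%, 7.901% and 26.9% after thinning. On a scale without mitochondrial and ribosomal protein genes COL18A1 was called lowest in RARRES2-high barcodes. A gene on the opposite strand that overlaps it, SLC19A1, had 95 counts in the library.

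Type VI collagen, which forms beaded filaments beside basement membranes, differed by chain as well. COL6A1 (ENSG00000142156, chr21:45981737-46005050) had 37 counts in ERBB2-high, 271 in RARRES2-high and 141 in FOLR1-high barcodes, or 10.75 CPM (7.57 to 14.8), 80.2 CPM (70.96 to 90.4) and 31.2 CPM (26.3 to 36.8). COL6A2 had 113 counts in ERBB2-high, 80 in RARRES2-high and 73 in FOLR1-high barcodes, or 32.8 CPM (27.05 to 39.5), 23.7 CPM (18.8 to 29.5) and 16.2 CPM (12.7 to 20.3). COL6A1 was 7.46-fold (5.28 to 10.8) higher in RARRES2-high than in ERBB2-high barcodes, whereas COL6A2 was spread more evenly, with ERBB2-high barcodes highest on the main rule and level with RARRES2-high ones when 90% of the marker counts were asked for (log2 ratio -0.01). COL6A1 took 24.7% (18 to 32.4%) of the pair in ERBB2-high, 77.2% (72.5 to 81.5%) in RARRES2-high and 65.9% (59.1 to 72.2%) in FOLR1-high barcodes. COL6A3, the long chain that completes the trimer, had only 2 counts in ERBB2-high, 16 in RARRES2-high and 0 in FOLR1-high barcodes, and COL6A5 and COL6A6 had none. COL7A1, the collagen of anchoring fibrils, had 44 counts in ERBB2-high, 16 in RARRES2-high and 2 in FOLR1-high barcodes. COL8A1, a short chain of vessel and eye membranes, had 71 counts in ERBB2-high, 219 in RARRES2-high and 1 in FOLR1-high barcodes, or 20.6 CPM (16.1 to 26.02), 64.8 CPM (56.5 to 74.01) and 0.2215 CPM (0.00561 to 1.23). It was called lowest in FOLR1-high barcodes, which had 1 count.

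Of 5 transmembrane and other collagens all had counts in the library, and COL26A1 alone reached 50 in a line. It had 1 count in ERBB2-high, 11 in RARRES2-high and 52 in FOLR1-high barcodes, and was 3.54-fold (1.82 to 7.52) higher in FOLR1-high than in RARRES2-high barcodes, just under a call on the main scale and past it on the scale without mitochondrial and ribosomal protein genes. The level of COL26A1 was 11.5 CPM in FOLR1-high barcodes, 19.95 CPM in those of its CXCL14 state, with mostly CXCL14 counts, and 3.17 CPM in those of the DEFB1 state, the last on 2 counts and not above the 3.26 CPM of RARRES2-high barcodes. COL17A1, the hemidesmosome collagen of epithelia, had 0 counts in ERBB2-high, 27 in RARRES2-high and 2 in FOLR1-high barcodes, and COL25A1 had 0 counts in ERBB2-high, 0 in RARRES2-high and 16 in FOLR1-high barcodes. These 2 did not reach 50 counts and were not compared.

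The chains of laminin-511 (LAMA5, LAMB1 and LAMC1), the widespread epithelial laminin, were each highest in FOLR1-high barcodes, while LAMB1 was below the RARRES2-high level in one of the states of that line described further on. LAMC1 (ENSG00000135862, chr1:183023460-183145592), the gamma chain shared by most laminins, had 541 counts in ERBB2-high, 329 in RARRES2-high and 1641 in FOLR1-high barcodes, or 157 CPM (144 to 171), 97.4 CPM (87.15 to 108.5) and 363.5 CPM (346 to 381.5). LAMA5 (ENSG00000130702, chr20:62307955-62367312), the alpha chain of that trimer, had 110 counts in ERBB2-high, 132 in RARRES2-high and 728 in FOLR1-high barcodes, or 31.95 CPM (26.3 to 38.5), 39.1 CPM (32.7 to 46.3) and 161 CPM (149.7 to 173). LAMB1 (ENSG00000091136, chr7:107923799-108003255), its beta chain, had 116 counts in ERBB2-high, 250 in RARRES2-high and 628 in FOLR1-high barcodes, or 33.7 CPM (27.8 to 40.4), 74.01 CPM (65.1 to 83.8) and 139 CPM (128 to 150.4). LAMC1 was 2.31-fold (2.097 to 2.55) higher in FOLR1-high than in ERBB2-high barcodes. LAMA5 was 4.13-fold (3.42 to 5.005) higher in FOLR1-high than in RARRES2-high barcodes and was called. LAMB1 was 1.88-fold (1.62 to 2.185) higher in FOLR1-high than in RARRES2-high barcodes, and lowest in ERBB2-high ones. A count of LAMC1 was found in 74.8% of FOLR1-high barcodes (71.5 to 77.8%), and in 49.4% and 42.9% of ERBB2-high and RARRES2-high ones; thinned shares were 49.7%, 23.1% and 15.1%. The LAMA5 call lies close to the 4-fold limit and ended when the CPM of single barcodes were averaged. LAMA5 and LAMB1 overlap genes on the opposite strand, ADRM1 with 2617 counts and DLD with 719, and reads could be assigned to either where strand was not used.

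LAMB2, the beta chain of laminins at nerve-muscle junctions and in kidney, had 99 counts in ERBB2-high, 37 in RARRES2-high and 166 in FOLR1-high barcodes, or 28.8 CPM (23.4 to 35.01), 10.95 CPM (7.71 to 15.1) and 36.8 CPM (31.4 to 42.8). It was lowest in RARRES2-high barcodes, where it was 3.36-fold (2.34 to 4.93) under FOLR1-high ones. LAMB1 took 17.7% (14.8 to 20.8%) of the counts of LAMB1 and LAMC1 in ERBB2-high, 43.2% (39.1 to 47.3%) in RARRES2-high and 27.7% (25.8 to 29.6%) in FOLR1-high barcodes, so that RARRES2-high barcodes had the most beta-1 chain counts for each gamma-1 chain count.

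LAMA3 and LAMB3, an alpha and a beta chain of the laminin to which hemidesmosomes anchor, did not follow one order of lines. LAMA3 (ENSG00000053747, chr18:23689443-23956222) had 50 counts in ERBB2-high, 340 in RARRES2-high and 56 in FOLR1-high barcodes, or 14.5 CPM (10.8 to 19.15), 101 CPM (90.2 to 112) and 12.4 CPM (9.37 to 16.1). LAMB3 (ENSG00000196878, chr1:209614870-209652466) had 464 counts in ERBB2-high, 276 in RARRES2-high and 15 in FOLR1-high barcodes, or 135 CPM (123 to 148), 81.7 CPM (72.35 to 91.9) and 3.32 CPM (1.86 to 5.48). LAMA3 was called highest in RARRES2-high barcodes, 6.93-fold (5.14 to 9.52) above ERBB2-high ones, and its ERBB2-high and FOLR1-high intervals overlapped. LAMB3 was 1.65-fold (1.42 to 1.92) higher in ERBB2-high than in RARRES2-high barcodes, and was called lowest in FOLR1-high ones. The ERBB2-high line thus had the most counts of the beta chain and the RARRES2-high line the most of the alpha chain.

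LAMA4 (ENSG00000112769, chr6:112108760-112254939), an alpha chain of vessel and muscle laminins, had 3 counts in ERBB2-high, 163 in RARRES2-high and 6 in FOLR1-high barcodes, or 0.8715 CPM (0.18 to 2.55), 48.25 CPM (41.1 to 56.3) and 1.33 CPM (0.488 to 2.89). It was 36.3-fold (16.3 to 100.4) higher in RARRES2-high than in FOLR1-high barcodes. CDH5, a gene of endothelial cells, also had 103 of its 154 library counts in RARRES2-high barcodes, while PECAM1 and VWF had 0 and 3 there, and their part in the LAMA4 level was not tested. LAMA2 and LAMC3 had 28 and 9 counts in the library, LAMA1 had 1 and LAMB4 none.

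**Figure D3:**
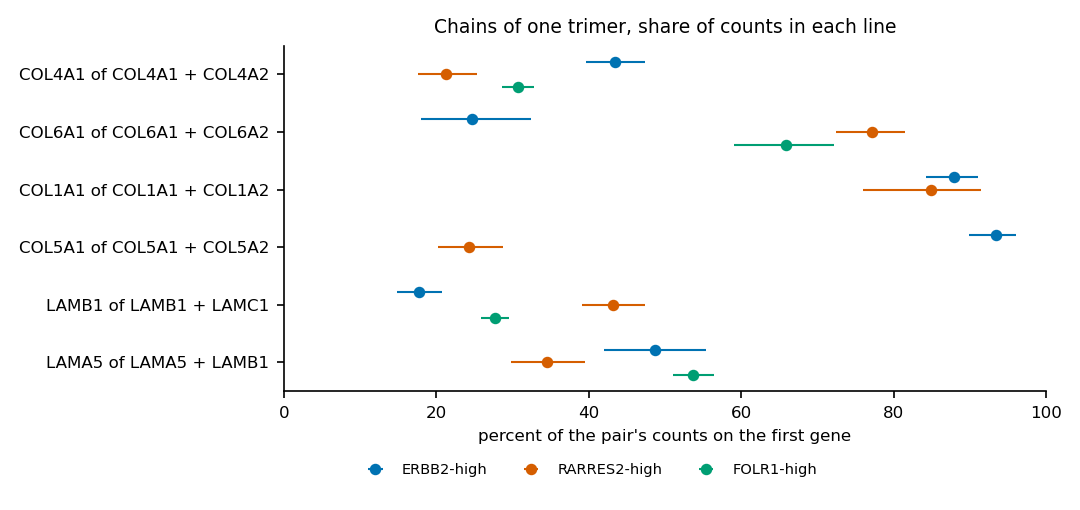
Share of the counts of 2 chains that fell on the first (percent, with 95% Clopper-Pearson intervals) in each line, for pairs that assemble in 1 protein, drawn where the pair had at least 50 counts. COL5A1 against COL5A2 separates the ERBB2-high line (93.45%) from the RARRES2-high line (24.3%).

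Fibronectin and SPARC were abundant in 2 lines and nearly missing from the third. FN1 (ENSG00000115414, chr2:215360440-215436172) had 628 counts in ERBB2-high, 503 in RARRES2-high and 26 in FOLR1-high barcodes, or 182 CPM (168 to 197), 149 CPM (136 to 162.5) and 5.76 CPM (3.76 to 8.44). SPARC (ENSG00000113140, chr5:151661096-151687165) had 342 counts in ERBB2-high, 470 in RARRES2-high and 1 in FOLR1-high barcodes, or 99.35 CPM (89.1 to 110.5), 139 CPM (127 to 152) and 0.2215 CPM (0.00561 to 1.23). Both were called lowest in FOLR1-high barcodes, FN1 25.9-fold (17.4 to 39.98) under RARRES2-high ones. TNC (ENSG00000041982, chr9:115019578-115118257), a glycoprotein of wounds and tumour stroma, had 7 counts in ERBB2-high, 66 in RARRES2-high and 1 in FOLR1-high barcodes, or 2.03 CPM (0.818 to 4.19), 19.5 CPM (15.1 to 24.9) and 0.2215 CPM (0.00561 to 1.23). It was called highest in RARRES2-high barcodes, 9.61-fold (4.41 to 24.8) above ERBB2-high ones, a call that ended at a minimum of 100 counts. It also ended when 90% of the marker counts were asked for, with 39 counts left in RARRES2-high barcodes and a log2 ratio of 3.32 against 3.26. FN1 counts were concentrated in few barcodes: a count was found in 28.7% of ERBB2-high barcodes (25.25 to 32.4%), and the tenth of barcodes with the most FN1 held 72.1% of the counts of that line and 75.15% in RARRES2-high barcodes. For COL4A2 the same shares were 41.6% and 41.1%.

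The called and the most abundant genes also differed in how many barcodes carried them, given here at own depth and, in brackets, after thinning. Of the genes highest in RARRES2-high barcodes, LAMA3 was found in 32.98% of RARRES2-high barcodes (14.2%), COL5A2 in 39.75% of RARRES2-high barcodes (15.35%), LAMA4 in 28.1% of RARRES2-high barcodes (10.2%), TNC in 10.4% of RARRES2-high barcodes (4.29%) and COL11A1 in 8.67% of RARRES2-high barcodes (2.935%). Of these 5, none was found in more than 6.405% of the barcodes of another line. Of the genes highest in FOLR1-high barcodes, COL4A2 was found in 70.3% of FOLR1-high barcodes (42.97%), LAMA5 in 52.8% of FOLR1-high barcodes (27.3%), LAMB1 in 46.1% of FOLR1-high barcodes (23.3%), COL4A1 in 44.3% of FOLR1-high barcodes (23.9%) and COL4A5 in 6.93% of FOLR1-high barcodes (2.59%). In contrast to these, SPARC was found in 46.5% of RARRES2-high barcodes (21.9%) and 18.8% of ERBB2-high barcodes (10.9%) but 0.131% of FOLR1-high ones, and LAMB3 in 41.2% of ERBB2-high barcodes (22.4%). RARRES2-high barcodes were the deepest, and the thinned shares are the ones to compare between lines.

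Within the FOLR1-high line, barcodes with at least 3 counts of CXCL14 and DEFB1 were split by the share on CXCL14, at least 75% (CXCL14 state, 192 barcodes, median 4886 counts) or at most 25% (DEFB1 state, 87 barcodes, median 6526 counts), limits chosen with earlier results of these data known. One pair of chains went each way. LAMB1 had 56.04 CPM (42.7 to 72.3) in the CXCL14 state and 207.5 (173.5 to 246) in the DEFB1 state. LAMA5 had 122 CPM (101 to 145) in the CXCL14 state and 233 (197 to 274) in the DEFB1 state. COL4A2 had 425 CPM (386 to 466) in the CXCL14 state and 249 (211 to 291) in the DEFB1 state. LAMB1 was 3.702-fold (2.703 to 5.12) and LAMA5 1.915-fold (1.501 to 2.45) higher in the DEFB1 state. COL4A2 was 1.71-fold (1.42 to 2.06) and COL4A1 1.56-fold (1.18 to 2.07) higher in the CXCL14 state. LAMC1 was 1.203-fold (1.02 to 1.42) higher in the DEFB1 state, and the ratio of COL18A1 in the CXCL14 over the DEFB1 state was 1.13 (0.877 to 1.45), an interval that includes 1. At 2-fold, which LAMB1 alone of the 8 matrix genes compared passed, 6.26% of 2619 entries with at least 50 counts in a state were higher in the DEFB1 state and 5.04% in the CXCL14 state. Against the other lines, COL4A2 was called highest with the CXCL14 state alone and LAMA5 with the DEFB1 state alone. LAMB1 in the CXCL14 state, at 56.04 CPM, was below its 74.01 CPM in RARRES2-high barcodes.

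**Figure D4:**
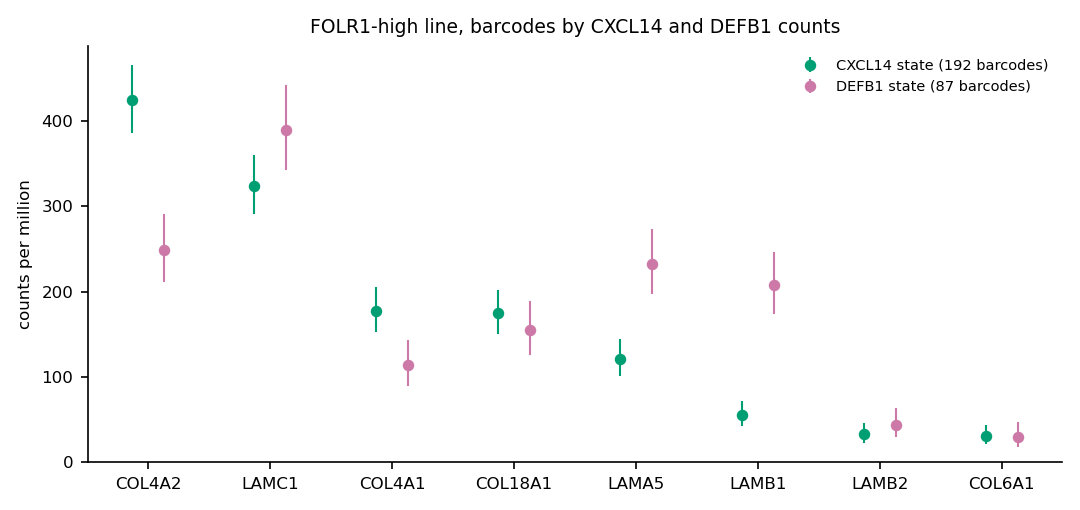
CPM of 8 matrix genes in the 2 states of the FOLR1-high line, with 95% counting intervals. LAMB1 (56.0 against 207.5 CPM) and LAMA5 are higher in the DEFB1 state, COL4A2 (425 against 249 CPM) and COL4A1 in the CXCL14 state.

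Genes that act with these proteins were counted in 5 lists. Over all entries compared, 2.32, 3.26 and 1.94% were called highest and 1.39, 2.41 and 4.67% lowest in ERBB2-high, RARRES2-high and FOLR1-high barcodes. With 18, 9, 12, 16 and 7 genes compared in the lists, 1 call alone makes a larger share than these. Counts of calls are therefore not read as a result about a list. Of 28 genes that make and secrete collagen, 18 were compared: 1 was called highest in RARRES2-high barcodes and 3 lowest in FOLR1-high ones. The first was PLOD3, a lysyl hydroxylase, with 17.7 CPM in ERBB2-high, 93.55 in RARRES2-high and 11.96 in FOLR1-high barcodes. The 3 lowest were PLOD2, P3H2 and P3H3, hydroxylases as well, with PLOD2 at 39.8 CPM in ERBB2-high, 55.95 in RARRES2-high and 0.886 in FOLR1-high barcodes. Of 12 partners in the basement membrane 9 were compared, and 2 were called highest in RARRES2-high barcodes: TINAGL1, at 5.52 CPM in ERBB2-high, 93.25 in RARRES2-high and 0.886 in FOLR1-high barcodes, and NID1, which bridges laminin and type IV collagen, at 1.45 CPM in ERBB2-high, 40.3 in RARRES2-high and 0.443 in FOLR1-high barcodes. NID2, the second nidogen, named after its values were seen, went the other way, at 31.7 CPM in ERBB2-high, 35.5 in RARRES2-high and 58.25 in FOLR1-high barcodes. Called lowest were 1 partner in ERBB2-high (SMOC2), 1 in RARRES2-high (NPNT) and 2 in FOLR1-high barcodes (PXDN and TINAGL1).

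Of 26 other glycoproteins and proteoglycans 12 were compared, 3 called highest in RARRES2-high and 1 in FOLR1-high barcodes. EFEMP1, of the fibulin family, had 4.07 CPM in ERBB2-high, 89.99 in RARRES2-high and 1.77 in FOLR1-high barcodes, and BGN, the proteoglycan biglycan, 1.45 CPM in ERBB2-high, 42.04 in RARRES2-high and 0.2215 in FOLR1-high barcodes. SPP1, osteopontin, had 544 CPM in ERBB2-high, 98.9 in RARRES2-high and 2318 in FOLR1-high barcodes. Of this list 1 gene was called lowest in ERBB2-high (FBN2), 2 in RARRES2-high (FBLN2 and SPP1) and 2 in FOLR1-high barcodes (THBS1 and TGFBI). Of 19 receptors 16 were compared. SDC1, a heparan sulfate receptor, and ITGA1, a collagen-binding integrin chain, were called highest in ERBB2-high barcodes, with SDC1 at 127.5 CPM in ERBB2-high, 14.8 in RARRES2-high and 7.31 in FOLR1-high barcodes. Called lowest in FOLR1-high barcodes were ITGA1, ITGA3, ITGA6 and DDR2, and these and the other genes called lowest are named after their values were seen. ITGA3 and ITGA6, alpha chains of laminin receptors, had 28.35 and 20.6 CPM there, against 306 and 131 in RARRES2-high barcodes. Of 15 proteases and inhibitors 7 were compared, 1 called highest in each line: MMP1, interstitial collagenase, in ERBB2-high (152.5 CPM), TIMP3, a matrix-bound inhibitor, in RARRES2-high (43.5 CPM) and MMP7, matrilysin, in FOLR1-high barcodes (331 CPM). Called lowest were MMP7 and MMP15 in RARRES2-high and MMP1 and MMP2 in FOLR1-high barcodes.

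Transcript shares were compared for the 21 matrix genes with at least 100 counts. Of these, 6 had a single listed transcript, LAMC1, COL4A2, LAMA5, SPARC and COL1A1 among them, and 12 of the other 15 had 50 counts in at least 2 lines. None of the 12 differed by 20 percentage points or more, against 3.60% of all 6502 entries with 50 counts in 2 lines and 4.62% of the 5064 with 2 or more transcripts. The median of the largest difference was 4.49 points, and the largest 19.3 points, in COL6A2. The leading transcripts were 1061 to 11723 bases long, with a median of 6494. Where a barcode had a single count of a gene, that count lay on 1 transcript in a median of 26.9% of cases over the 15 genes, against 56.25% over all entries with 2 or more transcripts and at least 20 such barcodes. The share was 2.69% in FN1, 3.79% in COL18A1 and 1.75% in LAMB1, so most single counts of these genes were shared between transcripts and the deposited shares rest on that split.

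For FN1 57.8% of the deposited counts were on transcripts with the extra domain A exon, but only 8 of 156 single counts lay wholly on one side, 3 with the exon and 5 without. For the extra domain B exon 1 of 5 such counts had it. The leading transcript ENST00000336916 held 16.15% of FN1 counts. Of TNC, too low to compare, the leading transcript ENST00000535648 of 6 held 42.6%. For COL18A1 the leading transcript, the short form ENST00000400337, held 39.9%, and 20 of 519 single counts could be settled, all on the short form. Since none settled on the other forms, this is not a share of the short form. With so few settled counts, differences between lines in these forms were not detectable at this depth.

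The forms of COL6A2 differ in the last exon, and some at the start as well. The distal last exon of COL6A2 ends the full-length transcript ENST00000300527, and 3 listed transcripts end in proximal last exons instead. Of these, ENST00000397763 and ENST00000409416 also start at chr21:46111450 and chr21:46111414, against chr21:46098097 for the full-length one. A count could thus be settled by the start as well as by the last exon. The proximal last exons of ENST00000310645 and ENST00000409416 begin elsewhere, at chr21:46128903, and their bases are not shown. The sequences below are from GENCODE 29, on the plus strand, and are coding in both exons. Shown are the first 60 bases of the distal exon (chr21:46131954-46132013) and of the proximal exon of ENST00000397763 (chr21:46129196-46129255):
COL6A2 distal last exon: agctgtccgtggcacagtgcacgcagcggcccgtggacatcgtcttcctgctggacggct
COL6A2 proximal last exon: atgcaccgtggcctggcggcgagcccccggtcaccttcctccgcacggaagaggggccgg

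Settled single counts lay on the transcript with the distal exon in 52 of 72 cases in ERBB2-high, 42 of 48 in RARRES2-high and 58 of 60 in FOLR1-high barcodes. These are 72.2% (60.4 to 82.1%), 87.5% (74.75 to 95.3%) and 96.7% (88.5 to 99.6%). The deposited counts gave 74.5, 89.95 and 93.8%. The interval of the ERBB2-high line lies below that of the FOLR1-high line, and the RARRES2-high line overlaps both. The difference of 24.45 points between the first and the last passed 20 points on settled counts, a measure added after the values were seen, and missed it on deposited counts, at 19.3 points. With deposited counts it was 22.5 points when 90% of the marker counts were asked for, 20.2 at a minimum of 2000 counts per barcode and 20.5 without called doublets. Where only deposited values that were whole numbers were used, it was 12.2 points.

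**Figure D5:**
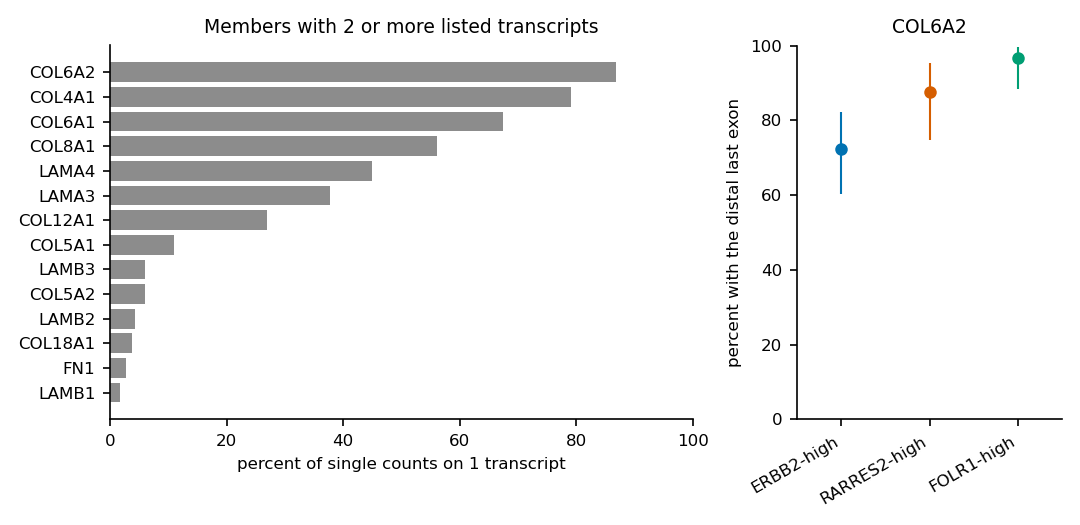
Left, percent of single counts (barcodes with 1 count of the gene) that lay on 1 transcript, for 14 matrix genes with 2 or more listed transcripts, from 86.85% in COL6A2 to 1.75% in LAMB1. Right, percent of settled COL6A2 single counts on the transcript with the distal last exon in each line, with 95% Clopper-Pearson intervals, from 72.2% in ERBB2-high to 96.7% in FOLR1-high barcodes.

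LAMA3, which has a long and a short form from separate starts, had the long form in 10 of 13 settled counts of ERBB2-high, 22 of 44 of RARRES2-high and 12 of 16 of FOLR1-high barcodes, with 73 of 157 single counts settled and overlapping intervals (46.2 to 94.96%, 34.6 to 65.4% and 47.6 to 92.7%). LAMA4 differed in kind: 37 of 108 settled counts in RARRES2-high barcodes were of short forms with 2 to 4 exons at the start of the gene, 34.3% (25.4 to 44.0%). The transcript with the most LAMA4 counts, ENST00000368638, was one of these and is 1061 bases long. Part of the LAMA4 level of that line thus came from counts assigned to transcripts that stop short of most of the gene.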

How the data were processed

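The deposited table gives estimated counts per transcript and barcode, made by the authors from nanopore reads; Cell Ranger 6.0.1 and GRCh38 are named in the submitters' processing notes, and no source used here gives the quantification settings or strand handling. Transcripts were summed to gene entries, where counts per barcode were whole within 1e-06. The library held 13052893 counts in 2462 barcodes, of which 1886 were placed in a line. Counts were then summed per line and scaled to CPM, with exact Poisson intervals for counts, exact conditional intervals for ratios and Clopper-Pearson intervals for shares, all at 95%. For calls, folds over 0 counts and the comparison of folds across alternatives, a level under 3 counts was set to 3 counts; elsewhere a ratio over 1 to 3 counts is the observed one with its interval. With 1 library, no test between lines was made.

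Values are given for genes with at least 100 counts, and in full for the 12 with the most counts and those called highest; of each list of other genes, the 2 called genes with the most counts per line are named. A gene and a sequence among them are not reported here. The members and lists were chosen with earlier results of these data known. The call scripts were tested on simulated data. Doublets were called with Scrublet (scanpy 1.11.5, expected rate 0.02), which marked 77 barcodes; they were kept, and left out as an alternative. Other alternatives changed the purity, depth and fold limits, the scaling and the count minimums. Annotation was GENCODE 29 (GRCh38), and promoter sequences came from RefSeq (GRCh38.p14), which matched 44 of the 59 genes. Python 3.11.15, numpy 2.4.6, scipy 1.17.1 and pandas 2.3.3 were used.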

Additional observations from a re-analysis of the deposited data

How the results depend on the processing

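No paired analysis was possible because the long-read library is 1 sample and no test was made. Genes called lowest in FOLR1-high barcodes numbered 8, and 6 with the DEFB1 state alone (without COL12A1 and COL5A2) and at 10-fold, 7 without the barcodes with 2 or more COL1A1 counts, 10 at 2-fold and 12 at a minimum of 20 counts. With the CXCL14 state alone the number was 8 as well, without COL5A2 and with LAMA3 (all entries 5.67%). Over all entries, 4.67% were called so on the main rule, 3.30% with the DEFB1 state alone and 2.26% at 10-fold. The shares were 4.64% without the barcodes with 2 or more COL1A1 counts, 12.5% at 2-fold and 5.24% at a minimum of 20 counts. Highest in RARRES2-high barcodes (6 genes) were 4 at 90% purity and at a minimum of 100 counts (without COL11A1 and TNC in both, which fell under the count minimum) and at 10-fold (without LAMA3 and TNC), 5 with the DEFB1 state alone (without COL11A1), 7 without the barcodes lacking ERBB2 and TSPAN1 and at a minimum of 20 counts, and 8 at 2-fold. All entries called so were 2.18% at 90% purity, 2.82% at a minimum of 100 counts, 1.75% at 10-fold and 3.06% with the DEFB1 state alone. They were 3.35% without the barcodes lacking ERBB2 and TSPAN1, 4.12% at a minimum of 20 counts and 8.51% at 2-fold. Highest in FOLR1-high barcodes (2 genes) were 1 with its CXCL14 state alone (COL4A2), 1 with its DEFB1 state alone (LAMA5), 1 with averaged barcode CPM (COL4A5), 1 at a minimum of 100 counts (LAMA5), 5 at 2-fold and 0 at 10-fold. The shares of all entries were 0.787%, 0.714%, 1.94%, 1.74%, 5.28% and 0.972% in the same order. Highest in ERBB2-high barcodes (2 genes) was 1, COL12A1, without the barcodes with 2 or more COL1A1 counts, without those lacking ERBB2 and TSPAN1, on the scale without mitochondrial and ribosomal protein genes, and at 10-fold. In the first of these the COL1A1 log2 ratio was -1.526, a turn that follows from choosing barcodes of 1 line on COL1A1 itself. Lowest in RARRES2-high barcodes (0 genes) was 1 on the scale without mitochondrial and ribosomal protein genes (COL18A1, all entries 2.73%) and 3 at 2-fold (7.39%). Lowest in ERBB2-high barcodes (0 genes) was 1 with averaged barcode CPM (COL26A1, all entries 1.39%) and 3 at 2-fold (4.07%). Past 20 points in a transcript share (0 genes) was 1 at 90% purity, at a depth of 2000 counts, without doublets, and on settled single counts (COL6A2 at 24.45 points), and 2 passed 10 points; on whole transcript counts alone COL6A2 differed by 12.2 points.

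Of single-gene folds 217 stayed within their interval, 32 moved past it and 1, the called COL1A1, reversed. In these folds levels under 3 counts were set to 3. Below 0 were 4 in all, and 5 on observed levels (also COL26A1, -0.04, with the DEFB1 state alone, on 2 counts): COL1A1 as above, LAMB1 (-0.40) and COL27A1 (-0.57) with the CXCL14 state alone, and COL6A2 (-0.01) at 90% purity. Of chain pairs 144 stayed and 8 moved. The state, COL1A1, ERBB2 and TSPAN1, and settled-count alternatives were chosen after seeing the data. The causes were not tested. Genes under 50 counts in every line, 34 of 59, were not called, and the folds given for some of them have no background.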
